A study of Mus musculus with 2 samples.

Results

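The genes described here were those of oxidative phosphorylation, 110 of the 32285 genes in the count table of the series, followed through the cell types of the mouse embryo. They were chosen by symbol, as names starting with mt-Nd, mt-Co, mt-Cyt, mt-Atp, Nduf, Sdh, Uqcr, Cox4 to Cox8 or Atp5, without pseudogene names. Of the 110 genes, 97 lie in the nucleus and 13 in mitochondrial DNA (mtDNA). The nuclear genes were 85 subunits, of which 36 belong to complex I, 4 to complex II, 8 to complex III, 20 to complex IV and 17 to complex V, and 12 assembly factors named Ndufaf or Sdhaf, which the prefixes include although they are not subunits. Ndufa4 and its paralogue Ndufa4l2 were counted with complex IV in spite of their names. Of mtDNA, 7 genes encode subunits of complex I, 1 of complex III, 3 of complex IV and 2 of complex V.

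The mice carried loxP-flanked alleles of Srsf2, a splicing factor, together with a Cre recombinase driven by the Myf5 promoter and the tdTomato (tdT) reporter, which Cre switches on. Trunks and limbs of E14 embryos were dissociated, tdT+ cells were sorted, and 1 library of single cells per genotype was sequenced from transcript 3′ ends, SRSF2f/f/Myf5-Cre/tdT as the mutant and SRSF2f/w/Myf5-Cre/tdT, which keeps a wild-type allele, as the littermate control. Both groups therefore share Cre and the reporter, and cells were taken from the tdT gate, which marks past Myf5-Cre activity. Many lineages, not muscle alone, were found in it. Whether each typed cell had Myf5 activity was not tested. The number of embryos behind a library is not given in the sources used here.

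The labels of the 2 libraries were in doubt. Srsf2 stood at 219 CPM (unique molecular identifiers, UMIs, of the gene in 1000000 UMIs) in the library labelled f/f and at 153 CPM in the library labelled f/w, a log2 ratio of -0.52 (-0.54 to -0.49), which goes against the labels, and the quality headings of the study name the genotypes the other way round. The Srsf2 values are sums over all kept cells, and the part of the mix of cell types in them was not tested. The libraries are called here only by their label, and every direction between them would turn under the other assignment. After quality limits, 12523 cells with 151555303 UMIs remained in the library labelled f/f and 10345 cells with 122938843 UMIs in the library labelled f/w, with medians of 10751 and 9480 UMIs per cell. The libraries shared 50 barcodes among these cells. With 1 library per genotype no test between libraries was possible, and the intervals given (95%, exact) cover counting error only. Most of what follows therefore compares cell types within a library and asks whether both libraries gave the same order.

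Oxidative phosphorylation passes electrons from NADH (complex I) and succinate (complex II) through complex III to oxygen at complex IV, and the proton gradient built on the way drives ATP synthesis by complex V. Subunits of complexes I, III, IV and V come from both genomes, whereas complex II is nuclear only. Several complex IV subunits exist as pairs of paralogues, of which one is made in most tissues and the other in heart and skeletal muscle (Cox6a2, Cox7a1, Cox8b) or in lung, vessels, low oxygen or testis (Cox4i2, Ndufa4l2, Cox6b2).

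Cells were typed by the UMIs of fixed marker genes, and 14037 of the kept cells (61.4%) took a type. Another 23.8% reached more than 1 marker list and were left out as mixed. Their median depth, 16015 and 16052 UMIs in the libraries labelled f/f and f/w, was above that of all kept cells. Since these same markers set the type, their detection in it cannot test the typing. Neural progenitors, with 4 cells in each library, were not used. In the types used, markers at 0 in their own type were Dmp1 in osteoblast-lineage cells labelled f/f and Ermap in erythroid cells labelled f/w. Others were near the floor, such as Mcpt4 with 3 UMIs in mast cells labelled f/f and Sp7 with 5 in osteoblast-lineage cells labelled f/f. Muscle-lineage cells numbered 1964 in the library labelled f/f and 98 in the library labelled f/w.

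The nuclear-encoded genes together took 28438 CPM of muscle-lineage cells (28376 to 28500) in the library labelled f/f and 32891 CPM (32603 to 33180) in the library labelled f/w. Mast cells stood near them at 29237 and 30125 CPM, and neurons followed at 26604 and 27067 CPM. Mesenchyme (20350 and 19051 CPM) and chondrocytes (20019 and 19114 CPM) lay at the lower end of the nucleated types. These 5 types kept this order in both libraries apart from mast cells and muscle, which changed places, and mesenchyme and chondrocytes, which changed places with overlapping intervals in the library labelled f/w. Osteoblast-lineage cells gave 32061 and 21843 CPM from 32 and 18 cells, so the libraries did not agree on their place. Erythroid cells were far below the rest at 5960 and 3225 CPM.

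Single cells spread around these sums. The share of nuclear-encoded members per muscle-lineage cell had a median of 2.83% in the library labelled f/f, with the middle 50% of cells between 2.51% and 3.17%, and a median of 3.18% in the library labelled f/w. In mesenchyme the medians were 1.94% (1.69% to 2.23%) and 1.83%. The middle ranges of muscle and mesenchyme did not overlap in the library labelled f/f.

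The 13 mtDNA genes followed another order. They were highest in pericytes, at 52110 and 45677 CPM in the libraries labelled f/f and f/w, and high in Schwann-lineage cells (49143 and 43063 CPM) and neurons (49558 and 41142 CPM). Muscle-lineage cells, highest for the nuclear genes among the types with at least 50 cells in each library, had 44037 and 40857 CPM of mtDNA transcripts. Chondrocytes again were low, at 30744 and 27597 CPM, and erythroid cells had 6859 and 3494 CPM. For each nuclear-encoded UMI there were 2.22 and 2.01 mtDNA UMIs in Schwann-lineage cells, 1.55 and 1.24 in muscle-lineage cells and 1.30 and 1.23 in mast cells. Muscle and mast cells thus carried less mtDNA transcript per nuclear transcript than Schwann-lineage cells in both libraries. So did chondrocytes and erythroid cells, which were low in both sets of genes. Cells above 10% mitochondrial UMIs had been removed (1050 and 925 barcodes), so that the mtDNA levels are cut off at their upper end.

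**Figure D1:**
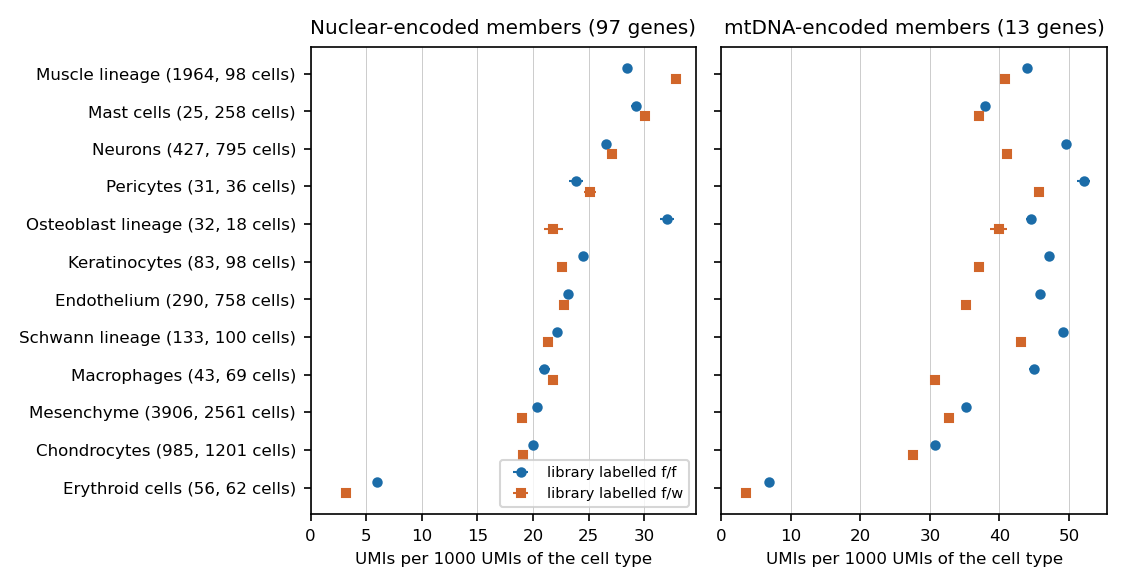
Summed level of the 97 nuclear-encoded genes (left) and of the 13 mtDNA genes (right) in UMIs per 1000 UMIs of each cell type, with the libraries labelled f/f (circles) and f/w (squares) and exact 95% Poisson intervals. The nuclear genes were highest in muscle and mast cells among types with similar values in both libraries, whereas mtDNA transcripts were highest in pericytes, Schwann-lineage cells and neurons and were lower in the library labelled f/w in all types shown.

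Muscle-lineage cells carried more of most nuclear-encoded genes than the other typed cells of the same library. These other cells were pooled by UMIs, so mesenchyme, with 39956323 and 25567108 UMIs, weighed most. For types other than muscle the pool held 28656063 muscle-lineage UMIs labelled f/f and 1520938 labelled f/w, so the reference differed between libraries. The summed level in muscle-lineage cells was higher by 0.44 on the log2 scale (0.44 to 0.45) in the library labelled f/f and by 0.62 (0.61 to 0.64) in the library labelled f/w. The median over the ranked members, those with at least 200 UMIs, was 0.41 and 0.58, beside -0.30 and -0.36 over all ranked genes. Of 92 nuclear members ranked in both libraries, 79 lay above 0 in both in muscle. Neurons, set against their own other typed cells, had 76 and mast cells 62. In muscle 22 were at least 1.5-fold higher in both, where 8.75% of all genes were. The summed ratio was 0.33 and 0.57 for complex I, 0.32 and 0.59 for complex II, 0.41 and 0.58 for complex III, 0.50 and 0.67 for complex IV, 0.51 and 0.64 for complex V and 0.32 and 0.59 for the assembly factors. At least 1.5-fold lower in both were 3 members, Ndufa4l2, Cox4i2 and Cox6b2, beside 35.5% of all genes. Ndufa4l2 stood at -4.47 and -3.44, Cox4i2 at -2.51 and -2.99 and Cox6b2 at -1.34 and -1.26, the values of the library labelled f/w from 4, 2 and 13 UMIs in muscle. Across the 7 types with at least 50 cells in each library, erythroid cells left out, 39 of the 92 members (42.4%) were highest in muscle in both libraries, a place that 9.74% of all genes took. Median depth moved with this comparison, at 13982 and 14439 UMIs in muscle-lineage cells against 9306 and 8857 in mesenchyme, and its part in the result was not tested.

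The 22 genes came from complexes I, III, IV and V and from the assembly factors. In complex I they included the acyl carrier protein Ndufab1, at 416 CPM in muscle-lineage cells and 221 CPM in other typed cells of the library labelled f/f and at 459 and 198 CPM in the library labelled f/w (log2 ratios 0.91 and 1.21). Ndufs7, an iron-sulphur subunit on the path of electrons to ubiquinone, had 181 against 106 CPM and 233 against 98.6 CPM (0.77 and 1.24). Further core subunits included Ndufs1, Ndufs8 and Ndufv2, with ratios between 0.66 and 0.96. The accessory subunits Ndufa10 and Ndufa12 were also among them.

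In complex III the Rieske iron-sulphur protein Uqcrfs1 had ratios of 0.69 and 0.93, and Uqcr11 of 0.71 and 1.09. The core protein Uqcrc2 and the small subunit Uqcrq were the other 2. In complex IV, Cox8a reached 1342 CPM against 719 CPM in the library labelled f/f and 1696 against 812 CPM in the library labelled f/w (0.90 and 1.06), and Cox5a and Cox7c joined it. In complex V the catalytic β subunit Atp5b had ratios of 0.75 and 0.81, the α subunit Atp5a1 of 0.68 and 0.70, and Atp5c1 and Atp5o also passed. Atp5g2, which encodes the c subunit of the rotor, had 976 against 506 CPM and 1088 against 628 CPM (0.95 and 0.79). The assembly factors were Ndufaf1 (0.87 and 0.93) and Ndufaf6 (0.87 and 1.30). All of these genes had intervals above 0 in both libraries, which adds no support, since they were picked by the same ratios.

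No complex II subunit was among them, although 2 of the 4, Sdha (0.62) and Sdhd (0.77), passed 1.5-fold in the library labelled f/w, where 13.8% of all genes were that much higher. In the library labelled f/f these 2 were at 0.45 and 0.46, where 12.2% were. Of the 13 mtDNA genes, all lay above 0 in muscle in both libraries. In both, 2 passed 1.5-fold, mt-Nd2 (0.66 and 0.63) and mt-Nd3 (0.73 and 0.70), where 8.75% of all genes did. Muscle was not alone in the direction. Above 0 in both libraries were 12 of the 13 in osteoblast-lineage cells, 11 in pericytes and in keratinocytes, and 10 in neurons and in Schwann-lineage cells. Chondrocytes had 1 and mesenchyme 0.

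Over the same 7 types the nuclear members had smaller spans than genes in general, without matching on level. The median log2 span between the highest and the lowest type was 0.81 and 1.03, beside 1.77 and 1.88 over all genes, and 0.82 and 0.73 for the mtDNA genes. Counting noise widens the span of genes with few UMIs. Of 10926 ranked genes, 664 and 795 had 0 UMIs in their lowest type and were left out of these medians, but no member was. The part of level in the smaller spans was not tested. For 69 of 92 nuclear members (75%) the highest type was the same in both libraries, much as for all genes (73.7%). The widest spans among ranked members were those of Ndufa4l2, Cox4i2, Ndufaf7 and Cox6b2.

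The paralogues of complex IV departed from this even pattern. UMIs of 3′ libraries are not scaled to transcript length, and genes may be captured unequally, so the share of a paralogue among the UMIs of its pair was compared between cell types and not read as a ratio of molecules. Promoters are shown for pairs whose members differed between types, as far as a window was at hand and leaving out Cox7a1 and Cox7a2, which rested on few UMIs of Cox7a1. The 250 bases before the transcript start are given 5′ to 3′ on the strand of the gene, as RefSeq lists them on GRCm38.p6, with capitals at matches on either strand to NRF1 (GCGC, any base, then TGCGC), GABPA (CCGGAAG), SP1 (GGGCGG) or the E-box CAGCTG. NRF1 and GABPA are known activators of nuclear respiratory genes, and E-boxes are bound by myogenic factors. The windows lie at chr5:115348959-115349208 (Cox6a1), chr19:7217617-7217866 (Cox8a), chr7:140900447-140900696 (Cox8b), chr7:30626115-30626364 (Cox6b1) and chr7:4753095-4753344 (Cox6b2), all on the minus strand.
Cox6a1: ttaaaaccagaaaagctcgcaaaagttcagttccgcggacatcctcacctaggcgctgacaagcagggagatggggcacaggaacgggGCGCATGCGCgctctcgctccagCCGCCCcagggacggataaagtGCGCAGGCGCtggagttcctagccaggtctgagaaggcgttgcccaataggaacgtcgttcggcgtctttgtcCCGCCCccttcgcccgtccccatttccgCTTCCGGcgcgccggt
Cox8a: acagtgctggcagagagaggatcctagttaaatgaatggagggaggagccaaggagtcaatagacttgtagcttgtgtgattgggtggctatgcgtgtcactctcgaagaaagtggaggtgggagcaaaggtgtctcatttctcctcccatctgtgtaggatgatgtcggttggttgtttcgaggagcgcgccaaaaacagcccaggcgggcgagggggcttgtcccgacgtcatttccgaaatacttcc
Cox8b: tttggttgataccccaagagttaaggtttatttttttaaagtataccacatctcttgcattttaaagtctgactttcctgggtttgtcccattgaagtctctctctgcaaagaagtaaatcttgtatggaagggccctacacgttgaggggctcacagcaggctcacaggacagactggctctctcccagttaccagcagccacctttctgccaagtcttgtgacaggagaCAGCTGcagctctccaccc
Cox6b1: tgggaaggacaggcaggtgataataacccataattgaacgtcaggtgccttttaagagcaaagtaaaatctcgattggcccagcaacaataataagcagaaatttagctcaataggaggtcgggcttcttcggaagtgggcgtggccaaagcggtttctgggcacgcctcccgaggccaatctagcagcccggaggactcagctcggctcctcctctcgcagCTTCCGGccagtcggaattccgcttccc
Cox6b2: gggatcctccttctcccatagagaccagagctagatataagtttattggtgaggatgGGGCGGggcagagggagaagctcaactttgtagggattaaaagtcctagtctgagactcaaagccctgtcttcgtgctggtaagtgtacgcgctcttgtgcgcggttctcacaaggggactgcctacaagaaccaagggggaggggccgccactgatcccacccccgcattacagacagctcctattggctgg

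The window of Cox6a1, the general form, held 2 NRF1, 1 GABPA and 2 SP1 matches, and that of Cox6b1 held 1 GABPA match. The window of Cox8b, the muscle form, held 1 CAGCTG, and that of Cox6b2 held 1 SP1 match. Cox8a had none of these in this window. Of the pair not printed, Cox7a1, also a muscle form, had none, and Cox7a2 had 1 SP1 match. Windows of 250 bases before to 50 after the start were at hand for 79 of the 97 nuclear members (84 windows). An NRF1 match stood in 26.2% of them and in 4.60% of the 32851 windows of all genes, and a GABPA match in 26.2% and 8.86%. SP1 matches were in 46.4% and 35.7%, CAGCTG in 7.14% and 16.3%, the wider E-box CANNTG, which includes CAGCTG, in 67.9% and 72.3%, TATAAA in 11.9% and 13.6%, and ACGTG, the core bound by hypoxia-inducible factors, in 22.6% and 19.6%. A match says only that the letters are there.

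Cox6a2 (ENSMUSG00000030785, chromosome 7, 128205435 to 128206387, minus strand, GRCm38), the heart and muscle form of subunit VIa, appeared with muscle maturation. Stages were set among muscle-lineage cells. Progenitors had Pax7 detected and no Myog. Differentiating cells had at least 3 UMIs of Myog, no Pax7 and under 10 UMIs of Myh3, Myh8 and Ckm together. Fibre-type cells had at least 10 UMIs of Myh3, Myh8 and Ckm and no Pax7. The stages did not cover the lineage, since 572 muscle-lineage cells labelled f/f and 27 labelled f/w fell in none and were left out. In the library labelled f/f, Cox6a2 made up 6 of 2765 UMIs of Cox6a1 and Cox6a2 in progenitors (0.217%, 0.0797% to 0.472%), 175 of 2072 in differentiating cells (8.45%, 7.28% to 9.73%) and 260 of 459 in fibre-type cells (56.6%, 52.0% to 61.2%). Each step exceeded the counting intervals. Typed cells outside the muscle lineage had 0.227%, and the progenitors were not above it, with median depths of 14366 UMIs in progenitors and 9306 in mesenchyme. The source of the share outside muscle, such as free RNA in droplets or cells given a wrong type, was not tested.

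The library labelled f/w gave the same order from far fewer cells. There the share was 0 of 111 UMIs in progenitors, which allows up to 2.70%, 16 of 177 in differentiating cells (9.04%, 5.26% to 14.3%) and 9 of 16 in the 4 fibre-type cells (56.2%, 29.9% to 80.2%), with 0.153% outside muscle. At each stage the intervals of both libraries overlapped. Cox6a1, the general form, moved the other way in the library labelled f/f, from 273 CPM in progenitors to 229 CPM in differentiating and 150 CPM in fibre-type cells, while Cox6a2 went from 0.593 to 21.1 and 196 CPM. Exons of Cox6a2 overlap Itgad on the other strand, and whether the counting used strand is not given in the sources used here.

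Cox8b (ENSMUSG00000025488, chromosome 7, 140898945 to 140900446, minus strand), the muscle form of subunit VIII, followed the same stages at a lower share. Progenitors labelled f/f had 3 of 13472 UMIs of Cox8a and Cox8b from it (0.0223%), differentiating cells 70 of 11458 (0.611%) and fibre-type cells 90 of 1552 (5.80%, 4.69% to 7.08%). The counts of the library labelled f/w were 0 of 627, 6 of 1078 (0.557%) and 3 of 96 (3.12%, 0.649% to 8.86%). Outside muscle the share was 0.0273% and 0.00384%, so fibre-type and differentiating cells stood above that share in both libraries.

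The third muscle form, Cox7a1, rested on few UMIs. The library labelled f/f had 1 of 5697 UMIs of Cox7a1 and Cox7a2 in progenitors, 8 of 5031 in differentiating cells (0.159%) and 4 of 634 in fibre-type cells (0.631%, 0.172% to 1.61%). The share of fibre-type cells was above that of progenitors by their intervals, but the 0.222% of typed cells outside muscle lay within its interval. It was 0.794%, with an interval above that value (0.320% to 1.63%), when cells that also reached another list were kept. The library labelled f/w had 2 of 37 UMIs in its 4 fibre-type cells (5.41%, 0.661% to 18.2%) and 0.295% outside muscle. Mast cells had 7 of 280 UMIs (2.50%, 1.01% to 5.08%) and 48 of 2212 (2.17%, 1.60% to 2.87%), above the share outside muscle in both libraries.

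**Figure D2:**
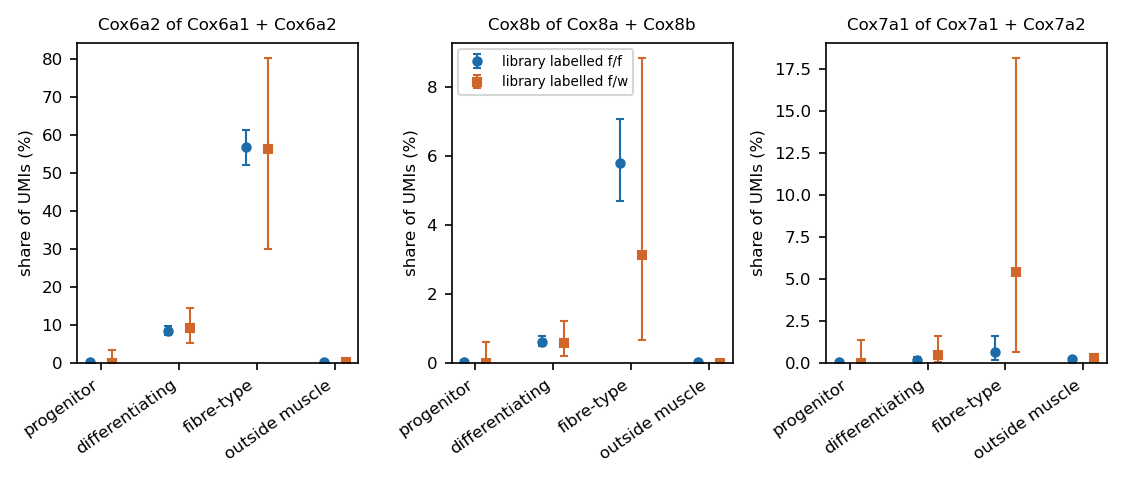
Share of the muscle paralogue among the UMIs of its pair (%) for Cox6a2, Cox8b and Cox7a1 in progenitor, differentiating and fibre-type muscle cells and in typed cells outside the muscle lineage, with exact 95% binomial intervals for the libraries labelled f/f (circles) and f/w (squares). Cox6a2 reached 56.6% and 56.2% and Cox8b 5.80% and 3.12% in fibre-type cells, the f/w values resting on 4 cells.

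Ndufa4l2 (ENSMUSG00000040280, chromosome 10, 127514967 to 127517154, plus strand), a paralogue of the complex IV subunit Ndufa4 and a known target of hypoxia signalling, was a pericyte and cartilage transcript here. It reached 385 CPM in the 31 pericytes of the library labelled f/f and 472 CPM in the 36 of the library labelled f/w, against 18.3 and 25.9 CPM in all other typed cells, log2 ratios of 4.40 (4.09 to 4.69) and 4.19 (3.93 to 4.43). Ndufa4l2 was not among the pericyte markers, and its exons overlap Shmt2 on the other strand. Of the UMIs of both paralogues it made up 98 of 158 in pericytes (62.0%, 54.0% to 69.6%) and 146 of 230 (63.5%, 56.9% to 69.7%), while Ndufa4 itself was at 236 and 272 CPM there, below other typed cells in both libraries (log2 ratios between -1.39 and -0.63 and between -1.15 and -0.51 by their intervals). No other type reached a share of 20%.

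Chondrocytes came next, with a share of 19.9% (18.8% to 20.9%) and 16.6% (15.7% to 17.6%), and being more numerous they held 66.1% and 53.8% of the Ndufa4l2 UMIs of typed cells. Neurons had 4.34% and 3.26%. Mesenchyme had 1.92% in the library labelled f/f and 4.56% in the library labelled f/w, with 7.71 and 17.8 CPM, the widest ratio between libraries of any member in that type (1.21, 0.995 to 1.42). In muscle-lineage cells the share was 0.227% and 0.400%, in endothelium 0.348% and 0.292%, and in mast cells 0.281% and 0.0347%.

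Cox4i2 (ENSMUSG00000009876, chromosome 2, 152754173 to 152765037, plus strand), the alternative form of subunit IV known from lung, had a similar distribution at a lower share. In pericytes it took 31 of 303 UMIs of Cox4i1 and Cox4i2 (10.2%, 7.06% to 14.2%) in the library labelled f/f and 29 of 352 (8.24%, 5.59% to 11.6%) in the library labelled f/w. Chondrocytes had 3.06% and 4.08%, mesenchyme 0.689% and 1.01%, and muscle-lineage cells 0.137% and 0.0999%. Ndufa4l2 and Cox4i2 were the only members at least 1.5-fold higher in both libraries in pericytes, where 8.14% of all genes were, and in chondrocytes, where 7.93% were. Pericytes were few, and with cells that also reached other marker lists kept as pericytes (149 and 87 cells), a setting added once the data had been seen, the Ndufa4l2 ratio was 3.61 and 3.24.

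Cox6b2 (ENSMUSG00000051811, chromosome 7, 4751792 to 4753094, minus strand), the form of subunit VIb known from testis, was detected outside it. It took 6.41% and 7.19% of the UMIs of Cox6b1 and Cox6b2 in mesenchyme, 5.95% and 5.48% in chondrocytes, 1.75% and 1.32% in muscle-lineage cells and 1.11% and 0.741% in neurons. Its level in mesenchyme, 27.0 and 29.8 CPM, was 1.06 and 1.08 above other typed cells on the log2 scale, and it was the only member at least 1.5-fold higher there in both libraries (12.5% of all genes were). Neurons and endothelium held it below 7 CPM. Keratinocytes labelled f/f had 28.0 CPM, the highest of the 7 types in that library, whereas mesenchyme was highest of them in the library labelled f/w.

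In erythroid cells Cox6b2 took 34 of 107 UMIs of the pair (31.8%, 23.1% to 41.5%) in the library labelled f/f and 29 of 84 (34.5%, 24.5% to 45.7%) in the library labelled f/w. Its level there was 54.1 and 39.4 CPM against 19 and 19.9 CPM in other typed cells. Erythroid cells were at least 1.5-fold lower in both libraries for 91 of the 92 ranked nuclear members and for all 13 mtDNA genes, as they were for 97.3% of all genes, and Cox6b2 was the member that went the other way (0.521% of all genes were higher in both).

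**Figure D3:**
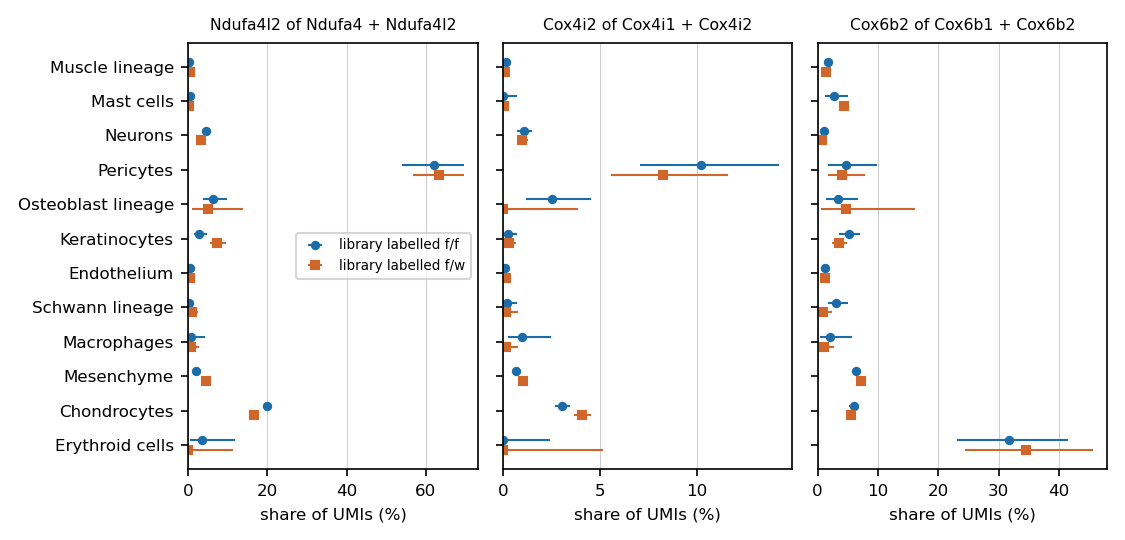
Share of Ndufa4l2, Cox4i2 and Cox6b2 among the UMIs of their pair (%) in each cell type, with exact 95% binomial intervals for the libraries labelled f/f (circles) and f/w (squares). Ndufa4l2 (62.0% and 63.5%) and Cox4i2 (10.2% and 8.24%) were highest in pericytes and next in chondrocytes in both libraries, and Cox6b2 was highest in erythroid cells (31.8% and 34.5%).

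The c subunit of complex V is encoded by Atp5g1, Atp5g2 and Atp5g3, which yield the same mature protein. Atp5g2 made up 56.5% and 59.5% of the UMIs of the 3 genes in Schwann-lineage cells, 48.8% and 46.6% in muscle-lineage cells and 34.3% and 38.9% in neurons. In the muscle lineage of the library labelled f/f its share was 47.7% in progenitors, 51.0% in differentiating and 53.3% in fibre-type cells, while Atp5g1 went from 29.5% to 26.6% and 23.3%. Atp5g3 stayed between 22.4% and 23.4%.

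In neurons 11 nuclear members were at least 1.5-fold higher than in other typed cells in both libraries, beside 27.7% of all genes, and 5 of the 11 were assembly factors of complex I or II. Ndufaf3, an assembly factor of complex I, stood at 40.6 and 46.5 CPM against 14.0 and 12.3 CPM (log2 ratios 1.54 and 1.92), and Ndufv3, an accessory subunit, at 206 and 232 CPM against 95.6 and 88.3 CPM (1.11 and 1.40). Cox5a, which has no second form among these genes, reached 608 and 648 CPM in neurons, above the 425 and 596 CPM of muscle-lineage cells. Cox6b2 was the only member at least 1.5-fold lower in neurons in both libraries, where 24% of all genes were. Exons of Ndufaf3 overlap Impdh2 on the other strand.

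In mast cells, 25 in the library labelled f/f and 258 in the library labelled f/w, 16 nuclear members were at least 1.5-fold higher in both libraries (10.4% of all genes were). Atp5f1, the b subunit of the peripheral stalk of complex V (chromosome 3, 105942698 to 105960099, minus strand), was at 1739 CPM against 500 CPM in other typed cells and at 2268 against 464 CPM, log2 ratios of 1.80 (1.71 to 1.89) and 2.29 (2.26 to 2.32). No other cell type exceeded 761 CPM for this gene. Sdhaf1, which helps to insert the iron-sulphur clusters of complex II, was at 71.5 against 21.9 CPM and 114 against 20.9 CPM (1.71 and 2.45), and the iron-sulphur subunit Sdhb was among the 16. Cox5a, Ndufb7, Ndufv3 and Sdhaf1 were on the lists of both neurons and mast cells. Both Atp5f1 and Sdhaf1 overlap exons on the other strand, of Wdr77 and E130208F15Rik. Lower in mast cells in both libraries were 3 nuclear members, Cox4i2, Ndufa4l2 and the assembly factor Sdhaf3, and mt-Nd6 (43.1% of all genes were).

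The remaining types had few nuclear members at least 1.5-fold away from the other typed cells in both libraries. Endothelium was higher for Cox7a2l alone, at 394 against 254 CPM in the library labelled f/f and 331 against 221 CPM in the library labelled f/w (10.5% of all genes were higher). Lower there were 4, Cox4i2, Cox6b2, Ndufa4l2 and the assembly factor Ndufaf5 (25.1% of all genes). Chondrocytes were lower for 6, among them Ndufaf5, Sdhaf1, the complex III core protein Uqcrc1 and the complex I core subunits Ndufs7 and Ndufv1, where 23.3% of all genes were lower. Ndufs7 stood there at 65.4 against 138 CPM and at 67.9 against 109 CPM, so the gene that was high in muscle was low in cartilage. Mesenchyme was lower for Cox5a, Ndufa4l2, Ndufaf1 and Uqcrq (9.03% of all genes), with Cox5a at 224 against 389 CPM and 200.3 against 417 CPM. Schwann-lineage cells had none higher (10.9% of all genes) and 4 lower, Atp5g1, Cox4i2, Ndufa4l2 and Ndufaf6 (14.8%). Macrophages had Sdhaf1 higher (11.8%) and Cox6b2, Ndufa4l2 and Ndufaf2 lower (35.8%), keratinocytes none higher (5.6%) and Cox4i2 and Ndufaf7 lower (33.2%), and pericytes Ndufa4, Ndufaf5 and Ndufaf6 lower (17.3%). Some of these rest on few UMIs, such as Ndufaf5 in pericytes with 1 UMI in each library and Sdhaf1 in macrophages with 13 and 32, and their intervals in the library labelled f/f included 0. Osteoblast-lineage cells had no nuclear member in either direction (4.24% of all genes were higher and 15.9% lower), and mt-Nd6 was lower.

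Within the muscle lineage the sum of the nuclear members changed little between stages. In the library labelled f/f it was 28284 CPM in progenitors (28180 to 28388), 28688 CPM in differentiating cells (28573 to 28804) and 26295 CPM in fibre-type cells (26020 to 26573). Differentiating over progenitor cells gave a log2 ratio of 0.02 in the library labelled f/f and 0.08 in the library labelled f/w. The median over members was -0.01 and 0.06, beside -0.17 and 0.01 over all ranked genes. In the library labelled f/w the direction rested on cells of the muscle list alone, since it turned to -0.0039 when cells that also reached another list were kept. There it was 0.15 with marker limits doubled. The ratios were 0.11 and 0.14 in the libraries labelled f/f and f/w when haemoglobin genes, mtDNA genes and those of ribosomal proteins were taken out of the denominator.

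Between progenitors and differentiating cells labelled f/f, 2 of 89 nuclear members passed 1.5-fold, beside 32.3% of all genes, and both were assembly factors, Sdhaf3 (11.5 to 18.8 CPM, 0.71) and Ndufaf1 (11.4 to 17.2 CPM, 0.60). Of the 54 ranked in the library labelled f/w none did, where 16.6% of all genes did. Between progenitors and fibre-type cells labelled f/f, 6 of 84 passed, beside 49.1% of all genes. Higher in fibre-type cells were Cox6a2 (8.37, 7.23 to 9.83), which reached 200 UMIs only through those cells, Ndufv3 (88.6 to 166 CPM, 0.91), Sdhaf1 (23.0 to 39.2 CPM, 0.77) and Cox7a2l, a factor of supercomplex assembly (265 to 432 CPM, 0.70). Lower were Ndufaf2 (93.3 to 51.2 CPM, -0.87) and Cox6a1 (-0.86). Over differentiating cells, 2 of 85 passed (22.4% of all genes did), Cox6a2 at 3.21 and Cox6a1 at -0.61. There too Cox6a2 reached 200 UMIs only through the fibre-type cells. The mtDNA genes went from 42156 CPM in progenitors to 46920 and 46719 CPM, log2 ratios of 0.15 and 0.15 over progenitors, led by mt-Cytb with 3167, 3893 and 4079 CPM. The values of mt-Cytb in the library labelled f/w were 3295, 4125 and 5176 CPM in these stages.

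The make-up of the mtDNA transcripts varied moderately between types. Over all kept cells mt-Atp6 gave 20.5% and 19.4% of the mtDNA UMIs in the libraries labelled f/f and f/w, mt-Co3 16.8% and 15.1%, mt-Co2 15.7% and 15.7% and mt-Co1 11.6% and 13.1%. mt-Nd6, the only member on the minus strand of mtDNA, gave 0.147% and 0.123%. Muscle-lineage cells and keratinocytes had the highest shares of mt-Nd2 (7.99% and 7.91% in the library labelled f/f) and of mt-Nd3 (3.03% and 2.84%) among the 7 types in both libraries, and endothelium had the lowest (5.18% for mt-Nd2 and 1.58% for mt-Nd3 in the library labelled f/f). Endothelium also had the highest share of mt-Co1, 14.3% and 15.4%. The coding stretches of mt-Atp8, mt-Atp6 and mt-Co3 overlap on the same strand, as do those of mt-Nd4l and mt-Nd4, so that reads there may be split between neighbours.

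Between libraries, over all kept cells, nuclear members took 2.30% of UMIs in the library labelled f/f and 2.16% in the library labelled f/w, a log2 ratio of -0.09, and mtDNA genes took 3.83% and 3.31%, a ratio of -0.21. By complex the nuclear shares were 0.617% and 0.573% for complex I, 0.0296% and 0.0260% for complex II, 0.213% and 0.204% for complex III, 0.645% and 0.612% for complex IV and 0.767% and 0.722% for complex V. All 5 were lower in the library labelled f/w, a direction that rests on the labels in doubt. Of 95 ranked nuclear members, 70 lay below 0, with a median of -0.11, beside 0.02 over all genes. Depth moved in the same direction, at 9480 against 10751 UMIs per cell. Muscle-lineage cells, which were high in the nuclear members, made up 15.7% of kept cells labelled f/f and 0.947% of those labelled f/w. The part of depth and of the mix of cell types in these ratios was not tested.

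Of the 108 members with at least 200 UMIs, 4 were past 1.5-fold between libraries, beside 18.8% of all genes. Cox8b went from 280 UMIs (1.85 CPM) in the library labelled f/f to 26 (0.211 CPM) in the library labelled f/w, a log2 ratio of -3.13 (-3.77 to -2.55), and Cox6a2 from 734 to 107 UMIs, a ratio of -2.48 (-2.78 to -2.18). Both reached 200 UMIs only through the library labelled f/f, where they were high. Within muscle-lineage cells the share of Cox6a2 was 6.08% and 5.99% and its level 16.3 and 17.1 CPM, and Cox8b was at 6.14 and 5.92 CPM. Muscle-lineage cells made up 15.7% and 0.947% of kept cells. They held 468 of the 505 Cox6a2 UMIs in typed cells labelled f/f and 26 of 52 in those labelled f/w. Mesenchyme held 30 and 10 of these UMIs and mast cells 0 and 7. The part of the mix of cell types in the Cox8b and Cox6a2 ratios was not tested. The other 2 were mt-Nd3 (-0.60, -0.62 to -0.59) and Cox7a1 (0.61, 0.27 to 0.95). Cox7a1 had 132 UMIs in the library labelled f/f and 163 in the library labelled f/w. Mast cells held 7 of its 73 UMIs in typed cells labelled f/f and 48 of 85 in those labelled f/w. Muscle-lineage cells held 17 and 4 of these UMIs, and mesenchyme held 28 and 15. Mast cells themselves numbered 25 and 258, and the part of their number in the Cox7a1 ratio was not tested. Under the 200 UMIs were Cox7b2, with 36 and 33 UMIs, and Cox8c, with 1 in each library.

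Sums over all cells cannot tell fewer cells of a type from less RNA per cell. Among the remaining members the complex II subunits ranged from Sdhc at -0.51 (-0.56 to -0.46), through the flavoprotein Sdha at -0.37 and Sdhd at -0.23 to Sdhb at 0.07. Of the mtDNA genes, mt-Nd2 stood at -0.37, mt-Co3 at -0.36, mt-Nd1 at -0.30 and mt-Atp6 at -0.29, whereas mt-Cytb (-0.02), mt-Nd4 (0.02) and mt-Nd4l (0.16) stayed near or above 0. The share of mt-Nd3 among mtDNA UMIs was lower in the library labelled f/w in each of the 7 types, 2.52% and 1.92% over all cells, and the share of mt-Cytb was higher in each, 8.65% and 9.83% over all cells.

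Within cell types the ratios were small. In muscle-lineage cells the nuclear members were higher in the library labelled f/w by 0.21 (0.20 to 0.22), and 80 of 91 ranked members lay above 0, with a median of 0.21 beside -0.06 over all genes. Only the assembly factor Sdhaf2 passed 1.5-fold (-0.86, with 11 UMIs in the library labelled f/w and an interval from -1.87 to 0.00), where 13% of all genes did. Sdhb (0.50), Cox5a (0.49) and Cox5b (0.49) were among the highest. These values rest on 98 cells of the library labelled f/w.

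In the other types the summed nuclear ratio was between -0.11 and 0.02, except in erythroid cells (-0.89, with 69.7% of all genes past 1.5-fold there). No nuclear member passed 1.5-fold in chondrocytes (-0.07), neurons (0.02), Schwann-lineage cells (-0.05) or endothelium (-0.02), where 2.31%, 2.52%, 3.63% and 3.35% of all genes did. In mesenchyme (-0.10) Ndufa4l2 (1.21) and the assembly factor Ndufaf6 (-0.60) passed, beside 5.83%, and in keratinocytes (-0.11) the complex V subunit Atp5k (-0.68) passed, beside 11%, together with mt-Nd6 (-0.81) and mt-Nd3 (-0.64). The mtDNA sum was lower in the library labelled f/w in all 8 types, from -0.11 in mesenchyme and in muscle to -0.38 in endothelium and -0.97 in erythroid cells.

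**Figure D4:**
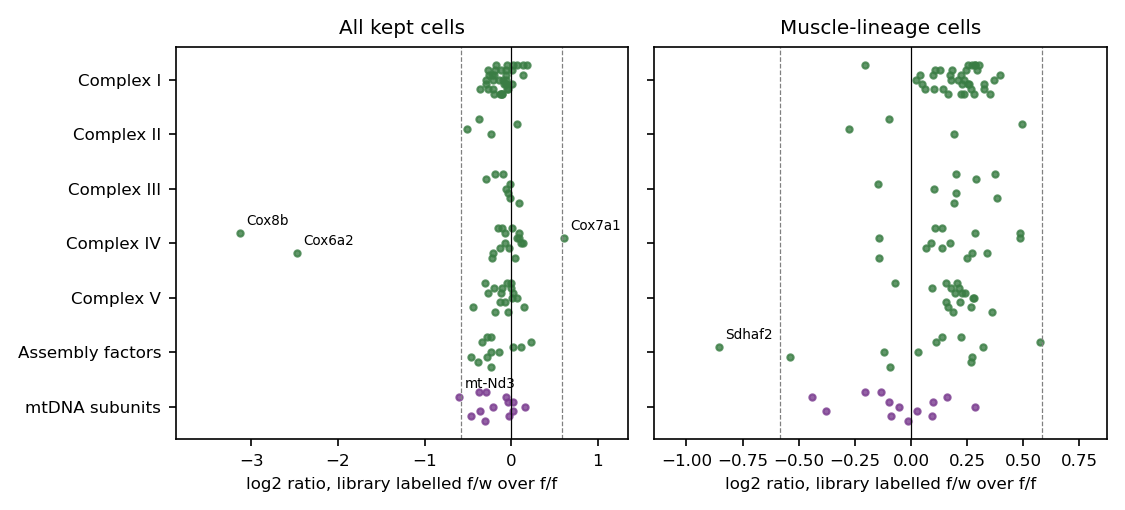
Log2 ratio of each ranked member, the library labelled f/w over the library labelled f/f, in all kept cells (left) and in muscle-lineage cells (right), by complex, with green points for nuclear and purple points for mtDNA genes and dashed lines at 1.5-fold. Members past the lines are named, and most nuclear members lay below 0 in all cells (70 of 95) and above 0 in muscle-lineage cells (80 of 91).

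Genes around the pathway were read from lists. Between libraries, over all cells, none of 8 carriers and subunits outside the prefixes and none of 13 citric acid cycle genes passed 1.5-fold, where 18.8% of all genes did. Of 26 further assembly factors 1 did, the copper chaperone Sco2 (10.8 to 19.5 CPM, 0.86), and of 17 genes of mitochondrial biogenesis 1, the coactivator Ppargc1b (7.40 to 2.82 CPM, -1.39). In muscle-lineage over other typed cells, 3 of 13 citric acid cycle genes were at least 1.5-fold higher in the library labelled f/f and 10 of 13 in the library labelled f/w, with medians of 0.47 and 0.67. Lower in muscle were 39.2% and 45.1% of all genes, and higher 12.2% and 13.8%. Carriers gave 3 and 4 of 8, assembly factors 6 of 26 and 8 of 24 with 1 lower in each library, and biogenesis genes 5 of 17 with 1 lower and 4 of 14 with 3 lower.

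In fibre-type over progenitor cells labelled f/f these lists held genes in both directions, and 49.1% of all genes passed 1.5-fold in that comparison. Among 13 citric acid cycle genes, Sucla2, a subunit of succinyl-CoA ligase, was higher (73.2 to 160 CPM, 1.13), and Fh1 (fumarase, 60.4 to 24.1 CPM, -1.33) and Idh3a (-1.20) were lower. Of 10 ranked biogenesis genes 5 were lower, among them Nrf1 (29.1 to 13.6 CPM, -1.10), Gabpb1 (-1.14) and Tfam (-0.69), and Lrpprc, which stabilises mtDNA transcripts, was higher (39.9 to 81.3 CPM, 1.03). The inhibitor of complex V, Atpif1, went from 405 CPM in progenitors to 228 CPM in differentiating and 131 CPM in fibre-type cells (-1.63 from the first to the last). With it, 3 of 7 ranked carriers were lower, and of 12 ranked assembly factors 2 were higher and 1 lower.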

How the data were processed

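The data were 1 library of tdT+ cells per genotype. The authors aligned reads to mm10 and counted UMIs per gene and barcode. The deposited values are whole-number counts for both libraries in 1 matrix. The submitters' processing notes name Cell Ranger 3.1.0, STAR and Seurat 3.1.1, while the matrix header names Cell Ranger 5.0.0. Barcodes were tied to a library by its number of cells.

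Barcodes further than 2 SD from their library's mean log10 UMIs or genes, or above 10% mitochondrial UMIs, were removed. A type needed 3, 5 or 20 UMIs of a marker list with at least 2 of its genes detected. Mixed cells were left out and no doublet caller was run. Counts were summed per library and type and scaled to CPM. Intervals are exact Poisson, exact binomial split or Clopper-Pearson at 95% and cover counting error only. They were tried on counts simulated from Poisson and binomial models, without spread between cells or libraries. Such a trial cannot judge that spread. A ratio was ranked from 200 UMIs and called from 1.5-fold. Genes named were the mtDNA genes, paralogues, Sdh genes, pathway lists and, in each comparison, the 5 highest and 5 lowest members. The genes of the group at least 1.5-fold higher in muscle, and the values of those beside them, were named after their values were seen. Members, lists and markers were chosen with earlier results of these data known. Values of some members are not reported here. Coordinates are from GENCODE vM21 (GRCm38). Of the 110 members, 38 have exons that overlap another gene, and reads of near-identical pseudogenes may be split. Tools were SciPy 1.17.1, pandas 2.3.3, NumPy 2.4.6 and matplotlib 3.10.9 under Python 3.11.15.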

Additional observations from a re-analysis of the deposited data

Results flagged for a closer look

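The nuclear-encoded members differed in direction between cell types when the library labelled f/w was set over the library labelled f/f. The log2 ratio of their summed level was above 0 in muscle-lineage cells (0.21) and in neurons (0.025). It was below 0 in chondrocytes (-0.067), mesenchyme (-0.10), Schwann-lineage cells (-0.053), endothelium (-0.024), keratinocytes (-0.11) and erythroid cells (-0.89). The median share per cell went the other way in neurons (2.5431% labelled f/f and 2.5355% labelled f/w) and in endothelium (2.232% and 2.248%). In the other types it had the direction of the sum. The difference between types was not tested, since each direction comes from 1 library per genotype, and all of these signs would turn if the labels were exchanged.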

How the results depend on the processing

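No paired analysis was possible because each genotype has 1 library. Of 60 values recomputed under alternatives, 36 stayed within the counting interval of the main value or, for numbers of members, within 1.5-fold of it. With a mitochondrial limit of 5%, the nuclear ratio between libraries was -0.071 and the mtDNA ratio -0.16. Without that limit they were -0.090 and -0.21, and the mtDNA ratio was also -0.21 without the 2 SD limits and in cells with at least 2000 UMIs. Taking haemoglobin genes, mtDNA genes and those of ribosomal proteins out of the denominator gave -0.12 for the nuclear ratio. Members past 1.5-fold numbered 3 or 4 throughout. Differentiating over progenitor cells gave 0.029 (5% limit), 0.11 (denominator) and 0.034 (cells on other lists kept) in the library labelled f/f, and 0.14 (denominator), 0.15 (marker limits doubled) and, reversed, -0.0039 (cells on other lists kept) in the library labelled f/w. Muscle over other types gave 0.46 and 0.65 (5% limit), 0.63 and 0.78 (denominator), 0.43 and 0.60 (limits doubled), and 0.39 and 0.52 (cells on other lists kept) in the libraries labelled f/f and f/w. The Cox6a2 share in fibre-type cells labelled f/f was 65.4% with limits doubled, and Ndufa4l2 in pericytes gave 3.61 and 3.24 with cells on other lists kept. Keeping such cells was chosen after seeing the data, and the cause of these changes was not tested. Depth limits the values from few cells, such as the 4 fibre-type cells of the library labelled f/w, the pericytes, osteoblast-lineage cells and mast cells labelled f/f, and those of genes with few UMIs such as Cox7a1.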
